A study of Mus musculus with 2 samples.

Results

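The genes described here are 7 genes of sterol synthesis, *Hmgcs1*, *Idi1*, *Fdps*, *Fdft1*, *Lss*, *Cyp51* and *Insig1*, taken by name from the 16383 genes of the tables, all 7 of them present. Their levels were read in liver nonparenchymal cells (NPCs) of male C57BL/6 mice that received a control diet or the methionine- and choline-deficient (MCD) diet, which leads to nonalcoholic steatohepatitis (NASH), for 6 weeks from the age of 8 weeks. No transgene is named for either group. NPCs of 3 mice were pooled per diet and captured on the BD Rhapsody platform, which tags every transcript with a barcode of its cell and a unique molecular identifier (UMI), so the data hold 1 control and 1 NASH library. Differences between diets therefore have no replicate check, no test between diets was made, and every interval, given in brackets, is a 95% interval for counting error that leaves out the spread between mice. Cells with at least 500 UMIs and 200 genes were kept, which left 4209 of 4336 control cells (median 1683 UMIs) and 3710 of 3893 NASH cells (median 1654 UMIs), from libraries of 11452972 and 9326723 UMIs that had 21 cell labels in common. A level (CPM) is the number of UMIs of a gene in a class of cells scaled to 1000000 UMIs of all genes in it, so that less of these transcripts cannot be told apart from more of all others.

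Cells make cholesterol from acetyl-CoA in a long chain of enzymes that starts with the mevalonate pathway. When sterols run low in the endoplasmic reticulum, the escort protein SCAP carries the transcription factor SREBP2 to the Golgi apparatus for cleavage, and the freed fragment switches on nearly the whole set of synthesis genes together. INSIG1 holds SCAP back when sterols are plentiful, and its own gene is a target of the same factor, so its transcript is read as part of the same set. In the liver the pathway is known best from hepatocytes, whereas the cells measured here are mainly endothelial, immune and biliary cells.

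The genes lie on 5 chromosomes of GRCm38 in the GENCODE M21 annotation, all as protein-coding genes. *Hmgcs1* lies at chr13:119690379-119708260 and *Idi1* at chr13:8885501-8892451, both on the plus strand. *Fdps* lies at chr3:89093588-89101959 and *Fdft1* at chr14:63145150-63179578, both on the minus strand. *Lss* lies at chr10:76531588-76557138 on the plus strand, *Cyp51* at chr5:4081145-4104746 on the minus strand and *Insig1* at chr5:28071363-28078662 on the plus strand.

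Promoter windows from RefSeq (GRCm38.p6, 250 bases before to 50 bases after the start) were available for 5 of the 7 genes, *Hmgcs1*, *Idi1*, *Lss*, *Cyp51* and *Insig1*. Each was searched on both strands for a core of the sterol response element that SREBP binds (TCACNCCAC), for the CCAAT box (CCAAT) bound by NF-Y, and for the E-box CACGTG, which do not overlap one another in these windows. The sterol response element core was found in *Hmgcs1* alone of the 5, at -137 from the RefSeq start, and in 1.24% of all 32851 windows. A CCAAT box was found in each of the 5 windows and in 37.4% of all windows, and the *Hmgcs1* window held 4, of which 1 lies after the RefSeq start. The RefSeq starts are not the GENCODE ones, and the matches in *Idi1* and *Cyp51* lie inside the GENCODE gene. The E-box was found in *Insig1* at -101 from the RefSeq start and in 7.15% of all windows. The stretches before the first start in either annotation of *Hmgcs1* and *Insig1* are shown because the former holds the only sterol response element core and the latter the only E-box among these genes. They were read from chr13:119690101-119690350 and chr5:28071162-28071362 on the plus strand, with the motif matches in capitals. A match is a match of letters, and factor binding was not measured here.
Hmgcs1: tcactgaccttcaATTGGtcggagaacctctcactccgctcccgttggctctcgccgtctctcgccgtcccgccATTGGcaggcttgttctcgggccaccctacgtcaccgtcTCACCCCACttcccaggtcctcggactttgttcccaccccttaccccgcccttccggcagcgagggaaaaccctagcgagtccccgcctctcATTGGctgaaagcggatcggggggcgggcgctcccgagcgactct
Insig1: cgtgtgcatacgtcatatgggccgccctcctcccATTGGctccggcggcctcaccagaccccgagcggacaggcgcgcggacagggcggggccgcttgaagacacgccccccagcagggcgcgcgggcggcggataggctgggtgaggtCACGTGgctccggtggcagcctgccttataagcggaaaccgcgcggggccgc

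The 7 genes were unevenly spread over the cell classes, with the highest levels in 3 small classes. Clusters were named by their marker genes, as described with the processing, and 4 of the 7 genes were among the 2000 genes used for clustering. Summed over the 7 genes, cholangiocyte-like cells, the cells of the bile ducts, stood at 2193 CPM (2002 to 2397) in control and 719 CPM (594 to 863) in NASH cells. Plasmacytoid dendritic cell-like cells, the producers of type I interferon, stood at 1648 CPM (1461 to 1852) in control and 972 CPM (767 to 1214) in NASH cells. Dendritic cell-like cells, which present antigen to T cells, stood at 606 CPM (541 to 676) in control and 537 CPM (477 to 602) in NASH cells. In the control library each of these levels was clear of the next one in the order, and in the NASH library each overlapped the next, while the dendritic cell-like cells were clear of every class below them with at least 10 cells.

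The next control level was that of the antibody-secreting plasma cell-like cells, 353 CPM, of which the NASH library held 6. In the control library the natural killer (NK) cell or ILC1-like cells (327 CPM), cycling cell-like cells (313 CPM), monocyte or macrophage-like cells (289 CPM), T cell-like cells (263 CPM), B cell-like cells (257 CPM) and Kupffer cell-like cells (219.8 CPM) followed, and no neighbours in this order were clear of each other. Kupffer cells, the resident macrophages of the sinusoid, were clear of the next class in the order. The lowest control levels were those of neutrophil-like cells (146 CPM), liver sinusoidal endothelial cell (LSEC)-like cells (142 CPM), stellate cell or fibroblast-like cells (126 CPM) and vascular endothelial cell (VEC)-like cells (113 CPM), again without a clear gap. Erythroid cell-like cells, which numbered 9 and 16, held 0 and 2 UMIs of the 7 genes. Endothelial cells thus stood near the bottom of the order in the control library, and in the NASH library LSEC-like cells stood at 126 CPM (111 to 141) and VEC-like cells at 138 CPM (116 to 164).

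**Figure D1:**
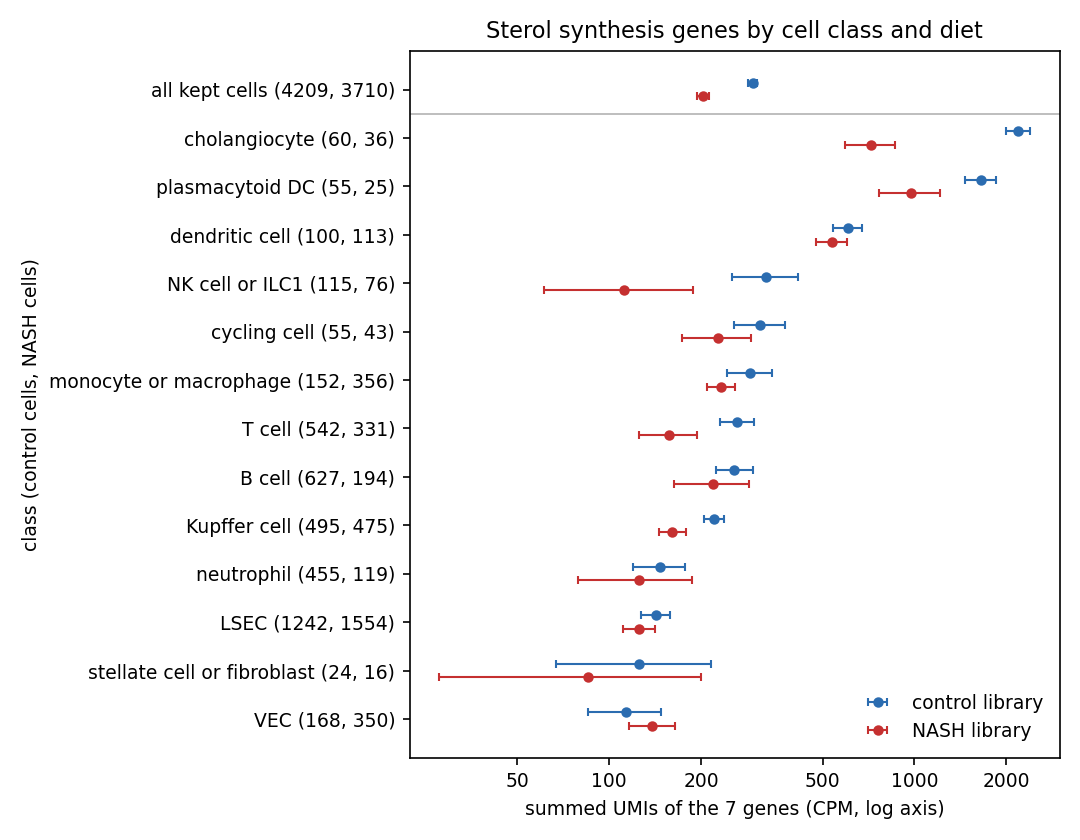
Summed level of the 7 genes (CPM, log axis) in each cell class with at least 10 cells in each library, control library in blue and NASH library in red, with exact Poisson 95% intervals and the numbers of control and NASH cells in brackets. Cholangiocyte, plasmacytoid dendritic and dendritic cell-like cells lie to the right of all other classes in both libraries, and the blue point lies to the right of the red one in each class but VEC-like cells.

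The small classes held far more of these transcripts than their size gives. Cholangiocyte-like cells had 1.94% of the UMIs of all genes but 14.4% of the UMIs of the 7 genes in the control library. In the NASH library these shares were 1.73% and 6.15%. Plasmacytoid dendritic cell-like cells had 1.501% of all UMIs and 8.37% of those of the 7 genes in the control, against 0.857% and 4.12% in the NASH library. LSEC-like cells went the other way, with 20.5% of all UMIs and 9.88% of those of the 7 genes in the control library and 23.5% and 14.6% in the NASH library.

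The names of these classes were checked against their markers. *Epcam*, an adhesion gene of bile duct epithelium, stood at 1572 and 1663 CPM in control and NASH cholangiocyte-like cells, against 13.1 and 4.84 CPM in all other cells. The epithelial keratin gene *Krt8* was lower in the NASH cells of the class, at 743 CPM (634 to 866) and 438 CPM (341 to 553), and the cadherin gene *Cdh1* stood at 1187 CPM (1048 to 1339.8) and 1044 CPM (892 to 1215). The part of epithelial content in the levels of the 7 genes was not tested. The name rests on 4 listed markers among the 50 leading genes, none of them among the leading 10. *Ccr9*, a chemokine receptor gene, stood at 2355 and 2637 CPM in the plasmacytoid dendritic cell-like cells of the control and NASH library, against 15.7 and 9.92 CPM elsewhere. *Flt3*, a growth factor receptor gene of dendritic cells, stood at 592 and 526 CPM in the dendritic cell-like cells, against 13.3 and 15.5 CPM elsewhere.

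Cholangiocyte-like cells also carried transcripts of hepatocytes. The 19 listed hepatocyte markers summed to 13764 CPM in control and 16416 CPM in NASH cells of this class, with albumin (*Alb*) at 7063 and 11084 CPM, against 167 and 241 CPM over all kept cells. Hepatocyte markers held over 1% of the UMIs in 31 of 60 control cells and in 22 of 36 NASH cells. Without these cells, a division chosen after the values had been seen, the summed level was 2452 CPM (2207 to 2716) in 29 control cells and 1003 CPM (747 to 1319) in 14 NASH cells. In the cells left out it was 1652 CPM (1367 to 1978) and 586 CPM (452 to 749). The cells that remained were not free of hepatocyte transcripts, with *Alb* at 4462 CPM in control and 5489 CPM in NASH cells. The NASH level was thus below the control level, with intervals apart, in both portions, and the part of hepatocyte transcripts in the levels of this class was not tested. In plasmacytoid dendritic cell-like cells *Alb* rested on 2 UMIs in each library, and in dendritic cell-like cells on 1 and 9 UMIs.

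*Hmgcs1* encodes cytosolic HMG-CoA synthase, which makes the substrate of the rate-limiting step. Over all kept cells it stood at 54.1 CPM (49.9 to 58.6) in control and 41.5 CPM (37.5 to 45.9) in NASH cells. Its highest control level was that of cholangiocyte-like cells, which stood at 530.1 CPM (438 to 635) in control and 163 CPM (106 to 238) in NASH cells. Plasmacytoid dendritic cell-like cells followed with 309.8 and 189 CPM and dendritic cell-like cells with 110.5 and 118 CPM. LSEC-like cells stood at 32.5 and 30.8 CPM, from 76 and 67 UMIs.

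*Idi1* encodes isopentenyl diphosphate isomerase, which makes the starter unit of all isoprenoids, and *Fdps* encodes farnesyl diphosphate synthase, which lengthens it. *Idi1* stood at 45.5 CPM (41.7 to 49.6) in control and 28.6 CPM (25.3 to 32.3) in NASH cells over all kept cells. Its control levels in cholangiocyte-like cells, 367 CPM (291 to 456), and plasmacytoid dendritic cell-like cells, 374 CPM (288 to 478), overlapped. In the NASH library the former were at 100 CPM (57.2 to 162) and the latter at 227 CPM (135 to 359). *Fdps* was sparse, with 56 UMIs in control and 39 UMIs in NASH cells. *Idi2*, the paralog of *Idi1*, had 2 and 0 UMIs, too few for any level. *Fdps* reached 40.8 CPM (18.6 to 77.4) in control cholangiocyte-like cells, from 9 UMIs.

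*Fdft1* encodes squalene synthase, the entry to the branch that makes sterols alone, and *Lss* encodes lanosterol synthase, which closes the sterol rings. *Fdft1* stood at 39.0 CPM (35.5 to 42.8) in control and 21.9 CPM (19.0 to 25.2) in NASH cells over all kept cells. It was the member with the widest gap between cholangiocyte-like and plasmacytoid dendritic cell-like cells of the control library, at 544 CPM (451 to 650.1) and 146 CPM (94.6 to 216). *Lss* stood at 10.9 CPM (9.05 to 12.97) in control and 4.97 CPM (3.64 to 6.63) in NASH cells over all kept cells. Its control level in plasmacytoid dendritic cell-like cells was 70.1 CPM (36.2 to 123), which overlapped that of cholangiocyte-like cells, 49.8 CPM (24.9 to 89.2). In LSEC-like cells *Lss* had 1 UMI in 1242 control cells and 2 UMIs in 1554 NASH cells.

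*Cyp51* encodes lanosterol 14-alpha-demethylase, which acts on the product of *Lss*. It stood at 33.6 CPM (30.3 to 37.1) in control and 25.7 CPM (22.6 to 29.2) in NASH cells over all kept cells, at 267 and 125 CPM in cholangiocyte-like cells and at 5.99 and 6.44 CPM in LSEC-like cells. *Insig1*, the gene of the sterol sensor that retains SCAP, had the most UMIs of the 7, 1226 in control and 696 in NASH cells, or 108 CPM (102 to 114) in control and 75.2 CPM (69.8 to 81.0) in NASH cells. Plasmacytoid dendritic cell-like cells stood at 526 CPM (423 to 647) in control and 303 CPM (194 to 451) in NASH cells, a control level that overlapped that of cholangiocyte-like cells, 394 CPM (316 to 486). In LSEC-like cells it made up 182 of the 333 control UMIs and 124 of the 273 NASH UMIs of the 7 genes, a larger portion than that of any other member.

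**Figure D2:**
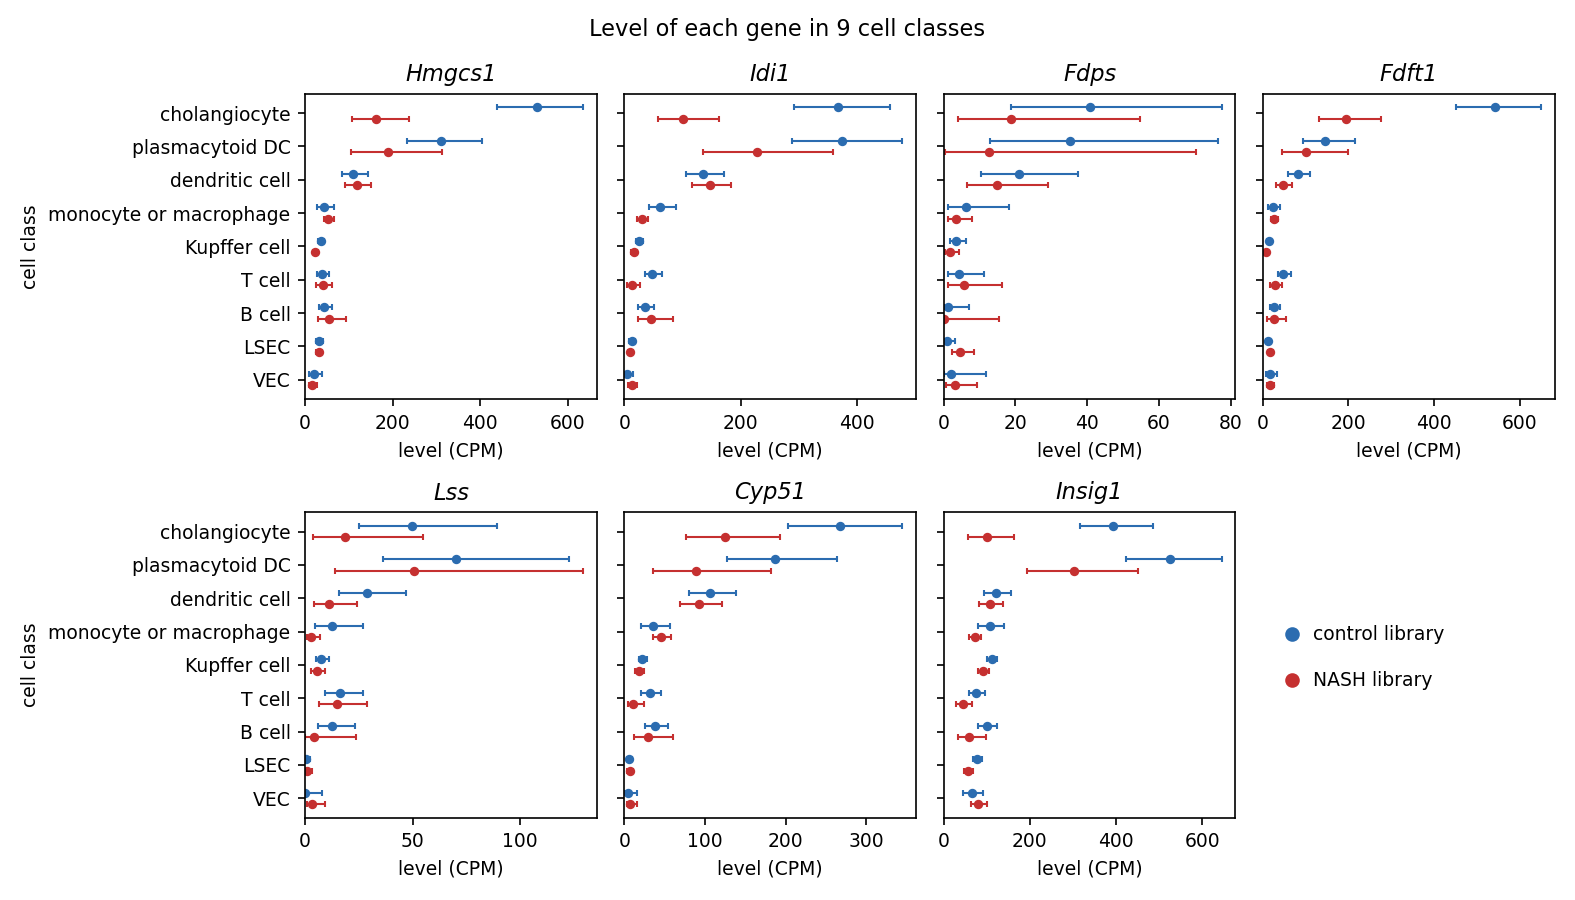
Level of each of the 7 genes (CPM) in 9 cell classes of both libraries (control blue, NASH red), with exact Poisson 95% intervals and a separate axis from 0 for each gene. *Fdft1* and *Hmgcs1* are highest in control cholangiocyte-like cells, and the *Insig1* intervals of control plasmacytoid dendritic and cholangiocyte-like cells overlap.

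Detection per cell was sparse. After random thinning of every cell to 1000 UMIs, without cells below that depth, any of the 7 genes was found in 18.6% (17.3 to 19.9) of 3527 control cells and 13.6% (12.4 to 14.9) of 2963 NASH cells. At their own depth these shares were 32.7% and 26.8%. In thinned plasmacytoid dendritic cell-like cells the shares were 72.2% (58.4 to 83.5) and 45.8% (25.6 to 67.2), in Kupffer cell-like cells 20.5% (16.9 to 24.5) and 14.2% (11.03 to 17.8), and in LSEC-like cells 11.9% (9.91 to 14.1) and 10.8% (8.95 to 12.9), in the order control and NASH. No class of nucleated cells should lack genes that every such cell can use. The erythroid cell-like class, with 9 control and 16 NASH cells, was too small to give a background share from free RNA. At 1000 UMIs, 105 of 3527 control cells (2.98%) and 38 of 2963 NASH cells (1.28%) held transcripts of at least 2 of the 7 genes.

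Single cells with many transcripts of these genes occurred in both libraries. A control cholangiocyte-like cell of 13490 UMIs held 46 UMIs of the 7 genes, among them 14 of *Hmgcs1* and 11 of *Cyp51*. The highest count of all was that of a NASH dendritic cell-like cell of 4185 UMIs, which held 54 UMIs, among them 17 of *Hmgcs1*, 16 of *Cyp51* and 13 of *Idi1*, but 2 of *Insig1*. The highest control dendritic cell-like cell, of 5019 UMIs, held 41, with 12 of *Insig1*. Most cells of this class held few. The median was 1 UMI per cell in both libraries, and at least 5 UMIs were found in 19 of 100 control and 12 of 113 NASH cells. Without the highest cell of each library, the class stood at 533 CPM in control and 440.4 CPM in NASH cells. Among LSEC-like cells the highest counts were 7 in control and 3 in NASH cells, and 991 of 1242 and 1319 of 1554 cells held none.

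Between diets, the 7 genes together were lower in the NASH library over all kept cells. The sum went from 296 CPM (286 to 306) to 202 CPM (193 to 212), with a log2 ratio of NASH to control, given for all classes below, of -0.55 (-0.63 to -0.47). All 7 genes had a ratio below 0, against 47.8% of the 8857 genes with at least 50 UMIs, whose median ratio was 0.017. Of the 7 intervals 6 lay below 0, against 22.5% of those genes. The 7 genes were chosen with earlier results of these data known. Their counts beside the shares of all genes, here and in the classes below, thus describe them and are no test. *Lss*, with 124 and 46 UMIs, had the lowest ratio, -1.12 (-1.65 to -0.63). *Fdft1* was at -0.83 (-1.08 to -0.59), *Idi1* at -0.67 (-0.89 to -0.45) and *Insig1* at -0.51 (-0.65 to -0.38). These 4 genes span the steps from the isoprenoid starter to the ring closure and the sterol sensor. *Cyp51* was at -0.38 (-0.62 to -0.15) and *Hmgcs1* at -0.38 (-0.57 to -0.20), and *Fdps* at -0.21 (-0.85 to 0.39), an interval that includes 0. *Lss*, *Fdft1* and *Idi1*, 3 of the 7, were lower by at least 1.5 times, as were 8.85% of all measured genes. With equal weight for each cell *Fdft1* was within this limit, at -0.52, as was *Idi1* without the cells rich in hepatocyte markers, at -0.58. *Insig1* passed it after thinning, at -0.71, and with totals free of hepatocyte, immunoglobulin and haemoglobin genes, at -0.59.

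The classes did not make up the same shares of both libraries, so the sum was also weighted to the class makeup of the control. The NASH level was then 208 CPM in place of 202 CPM, and the log2 ratio -0.51, both without an interval. Small NASH classes enter this value, among them 6 plasma cell-like cells with 14 UMIs of the 7 genes, at the control weight of 8.10%. All 7 genes stayed below 0 at this makeup, and the one that moved most was the sparse *Fdps*, from -0.21 to -0.45, followed by *Fdft1*, to -0.67. The 19 hepatocyte markers summed to 537 CPM in control and 519 CPM in NASH cells over all kept cells, while *Alb* alone went from 167 to 241 CPM. Neutrophil-like cells, with *Alb* at 12.6 and 38.0 CPM, held the markers at 2505 CPM in control and 1319 CPM in NASH cells. They made up 6.25% of all control and 1.99% of all NASH UMIs, so the near-equal sums do not show equal hepatocyte content.

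**Figure D3:**
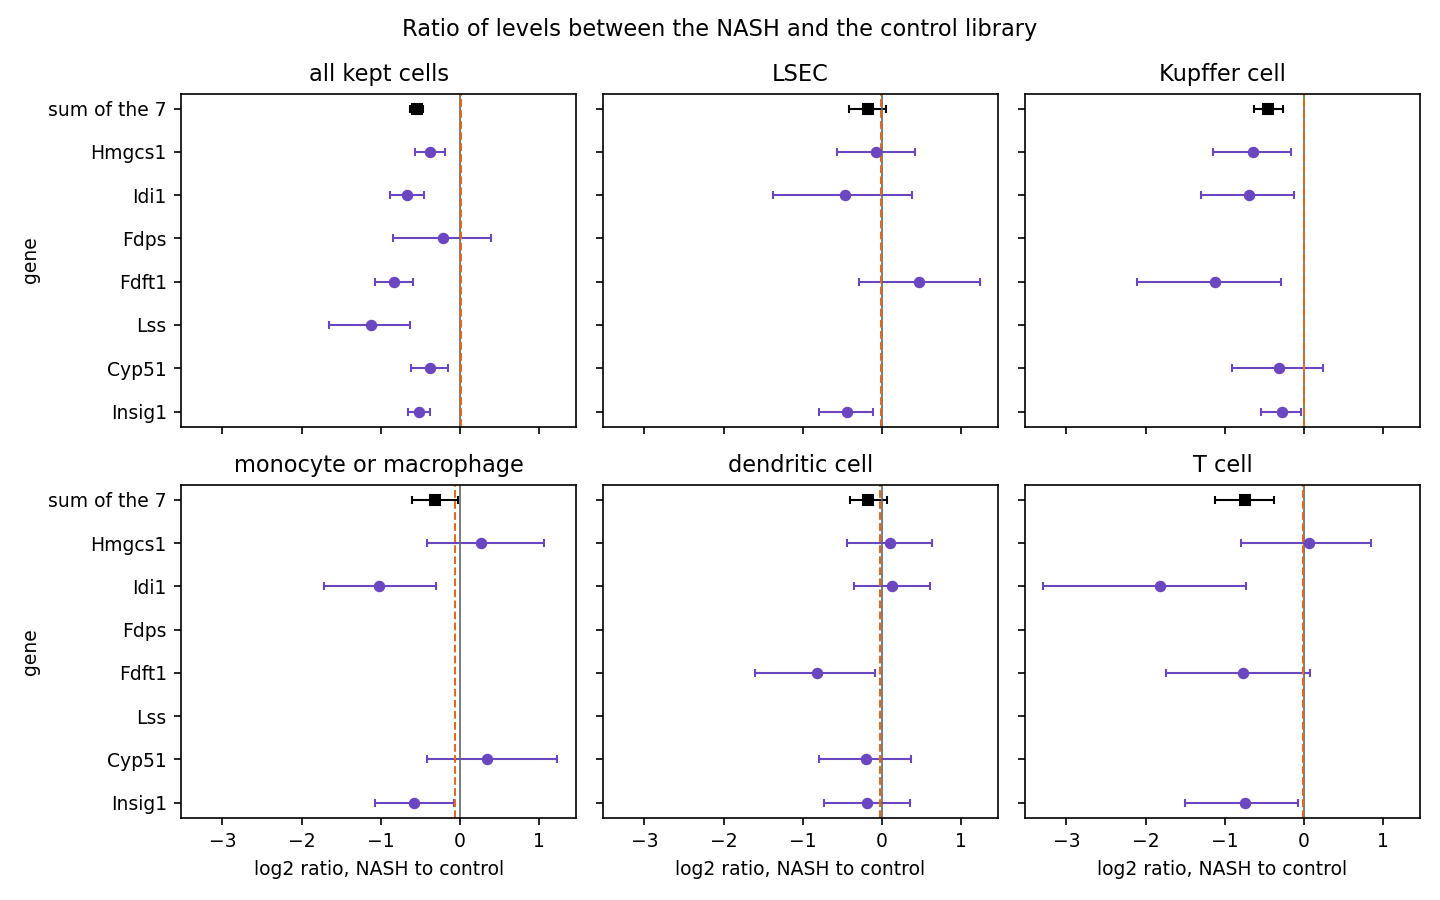
Log2 ratio of levels in the NASH library to those in the control library for the sum (black square) and for each of the 7 genes with at least 50 UMIs (violet points) in all kept cells and 5 classes, with exact binomial 95% intervals for counting error. The dashed line is the median ratio of all measured genes. All points of all kept cells and of Kupffer cell-like cells lie left of 0, while those of LSEC-like, monocyte or macrophage-like, dendritic and T cell-like cells lie on both sides.

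In Kupffer cell-like cells every measured member was lower in the NASH library, as were 50.6% of all genes measured in them. The class, marked by *Clec4f* at 7514 and 7425 CPM for control and NASH cells, held 495 and 475 cells with median depths of 6143 and 4592 UMIs. The sum stood at 219.8 CPM (204 to 237) in control and 161 CPM (145 to 178) in NASH cells, with a log2 ratio of -0.45 (-0.63 to -0.27). *Fdft1* went from 45 to 15 UMIs, at -1.13 (-2.11 to -0.29). *Idi1* was at -0.69 (-1.30 to -0.12) and *Hmgcs1* at -0.64 (-1.15 to -0.17), and these 3 were lower by at least 1.5 times, against 3.35% of the 6200 genes measured in this class. *Insig1* was at -0.28 (-0.54 to -0.036) and *Cyp51* at -0.32 (-0.92 to 0.24), and *Fdps* and *Lss* had fewer than 50 UMIs. When each cell was thinned to 1000 UMIs, *Idi1* had 9 control and 13 NASH UMIs, which turns its direction, and *Insig1* was at -0.98, past 1.5 times. With equal weight for each cell *Idi1* was at -0.42, within that limit. The summed hepatocyte markers went the other way in these cells, from 111 to 189 CPM with all 19 present in both libraries, and neither their part nor that of the lower depth was tested.

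LSEC-like cells showed a smaller ratio of the sum, and *Insig1* was the only member with an interval below 0. The class, marked by *Flt4* (VEGFR-3) at 2110.1 and 2550.1 CPM, held 1242 control and 1554 NASH cells with median depths of 1600.5 and 1217.5 UMIs. The sum stood at 142 CPM (128 to 159) in control and 126 CPM (111 to 141) in NASH cells, with a log2 ratio of -0.18 (-0.42 to 0.053), which includes 0. *Insig1* went from 77.8 CPM (66.9 to 90.0) to 57.0 CPM (47.4 to 68.0), at -0.45 (-0.79 to -0.11). *Hmgcs1* was at -0.076 (-0.57 to 0.42), *Idi1* at -0.47 (-1.37 to 0.38) and *Fdft1* at 0.46 (-0.29 to 1.23), each with an interval that includes 0. None of the 4 measured members differed by 1.5 times, against 10.4% of the 6249 genes measured in this class. After thinning 3 of them passed this limit, *Insig1* at -0.75, *Idi1* at -0.74 and *Fdft1* at 0.86. Without *Insig1*, a sum chosen after the values had been seen, the log2 ratio of the other 6 genes was 0.086. *Fdps* had 2 and 10 UMIs and *Cyp51* 14 in each library. All 19 hepatocyte markers were present and summed to 137 CPM in control and 264 CPM in NASH cells, and their part in these values was not tested.

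The LSEC-like cells came from 2 clusters with unlike *Fdft1* counts, a difference that was not tested. In the cluster led by *Lyve1* it had 25 control and 17 NASH UMIs, at 14.3 and 11.8 CPM. In the shallower cluster led by *Dll4* it had 3 and 19 UMIs, at 5.12 CPM (1.06 to 15.0) and 25.7 CPM (15.5 to 40.2). *Insig1* stood at 78.7 and 62.7 CPM in the former, with a log2 ratio of -0.33 (-0.73 to 0.065), which includes 0. In the latter it stood at 75.1 and 46.03 CPM, at -0.70 (-1.40 to -0.028). VEC-like cells were the only class with at least 50 cells per library and a higher sum in the NASH library, 113 CPM (85.0 to 148) in control and 138 CPM (116 to 164) in NASH cells, and the log2 ratio of 0.28 (-0.18 to 0.78) includes 0. *Insig1*, the only member measured in them, was at 0.29 (-0.31 to 0.96).

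T cell-like and NK cell or ILC1-like cells were lower in the NASH library. T cell-like cells went from 263 CPM (230.4 to 298) to 156 CPM (125 to 193), with a log2 ratio of -0.74 (-1.12 to -0.38). *Idi1* had 44 UMIs in 542 control and 7 UMIs in 331 NASH cells, at -1.81 (-3.29 to -0.73). *Insig1* was at -0.75 (-1.50 to -0.079) and *Fdft1* at -0.77 (-1.75 to 0.077), while *Hmgcs1* was at 0.058 (-0.79 to 0.85). *Idi1*, *Insig1* and *Fdft1*, 3 of the 4 measured, were lower by at least 1.5 times, against 5.54% of the genes measured in this class, and *Fdft1* was within this limit, at -0.46, with equal weight for each cell. Most control T cell-like cells came from a cluster led by *Nsg2* and *Cd8b1* and most NASH ones from a cluster led by *Cxcr6* and *Cd40lg*. In the former the sum went from 289 to 147 CPM, at -0.97 (-1.54 to -0.46). In the latter it went from 230.2 to 165 CPM, at -0.47 (-1.01 to 0.039), which includes 0. NK cell or ILC1-like cells had 66 control and 14 NASH UMIs of the 7 genes, 327 CPM (253 to 416) in control and 112 CPM (61.2 to 188) in NASH cells, with no single member at 50 UMIs. B cell-like cells stood at 257 CPM (223 to 295) in control and 219 CPM (163 to 287) in NASH cells. *Insig1*, the only member measured in B cell-like cells, was at -0.72 (-1.69 to 0.073) and thus lower by over 1.5 times, against 7.32% of their genes. *Alb* rested on 8 and 3 UMIs in T cell-like and on 3 and 2 UMIs in NK cell or ILC1-like cells, in the order control and NASH.

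Myeloid classes other than Kupffer cells were mixed. Monocyte or macrophage-like cells went from 289 CPM (243 to 341) to 232 CPM (209 to 258), with a log2 ratio of -0.32 (-0.60 to -0.023). *Idi1* was at -1.03 (-1.71 to -0.30) and *Insig1* at -0.59 (-1.07 to -0.074), 2 of 4 members lower by at least 1.5 times, against 14.6% of the genes of this class. *Insig1* passed this limit narrowly and was within it, at -0.39 to -0.57, after thinning, centring on the median of all genes, equal weight for each cell and both other clusterings. *Hmgcs1* was at 0.27 (-0.41 to 1.06) and *Cyp51* at 0.33 (-0.42 to 1.23), on the other side of 0 with intervals that include it. The larger cluster of this class, led by *F10* and *F13a1*, held 121 control and 261 NASH cells. Its sum was at -0.26 (-0.57 to 0.070), which includes 0. In it *Insig1* was at -0.46 (-1.01 to 0.14) and *Idi1* at -1.17 (-1.89 to -0.42). In dendritic cell-like cells the ratio of the sum was -0.17 (-0.41 to 0.059). *Fdft1* went from 43 to 25 UMIs, at -0.82 (-1.60 to -0.085), the 1 of 5 members lower by 1.5 times, against 6.21% of their genes. After thinning it was within this limit, at -0.38, while *Cyp51* and *Idi1* were past it, at -1.26 and -0.66. *Hmgcs1* and *Idi1* were at 0.094 (-0.44 to 0.63) and 0.12 (-0.35 to 0.61), and the NASH cell with 54 UMIs enters both. Neutrophil-like cells stood at 146 CPM (119 to 177) in control and 125 CPM (79.1 to 187) in NASH cells, with intervals that overlap.

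Cholangiocyte-like and plasmacytoid dendritic cell-like cells had under 50 NASH cells each, so that their levels are given without a ratio. In plasmacytoid dendritic cell-like cells each of the 7 genes had a lower level in the NASH library, and the intervals of each single gene overlapped between diets while those of the sum, given above, did not. In cholangiocyte-like cells *Hmgcs1*, *Idi1*, *Fdft1*, *Cyp51* and *Insig1* were lower in the NASH library with intervals apart. *Fdps* and *Lss* were lower with intervals that overlapped. Cells with up to 1% hepatocyte markers still held *Alb* at 4462 CPM in control and 5489 CPM in NASH cells. Among them *Fdft1* stood at 663 CPM (539 to 807) and 197 CPM (94.4 to 362), with intervals apart. *Hmgcs1* stood at 616 CPM (497 to 756) and 236 CPM (122 to 412) and *Insig1* at 469 CPM (366 to 592) and 197 CPM (94.4 to 362), both also apart. *Idi1* at 268 CPM (191 to 365) and 177 CPM (81.0 to 336) and *Cyp51* at 328 CPM (243 to 434) and 197 CPM (94.4 to 362) overlapped in these cells.

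Most of the remaining enzymes of cholesterol synthesis were below 0 over all kept cells. Of 18 listed enzymes 15 were measured, and *Sqle*, *Sc5d* and *Tm7sf2* are absent from the data, which end at *Rad54l2*. Of the 15, 13 had a ratio below 0, against 47.8% of all measured genes, with a median of -0.31 against 0.017. Intervals below 0 numbered 7 and those above 0 numbered 2, against 22.5% and 26.6% of all measured genes. The list values over all kept cells, here and below, were not weighted to the class makeup of the control. Monocyte or macrophage-like cells, for one, held 4.25% of all control and 16.2% of all NASH UMIs. *Aacs*, which encodes the enzyme that activates acetoacetate for this pathway, was at 32.0 and 20.3 CPM for control and NASH cells, with a log2 ratio of -0.65 (-0.92 to -0.40), and *Hsd17b7*, which encodes a sterol ketoreductase, at -0.55 (-0.94 to -0.18). *Ggps1* and the reductase gene *Por* were the 2 above 0, both of which serve other pathways too, and *Por* was named after its value was seen. In Kupffer cell-like cells the median of 10 measured enzymes was -0.11, with 6 below 0, against 50.6% of their genes, and *Aacs* at -0.77 (-1.48 to -0.13). In LSEC-like cells the median of 10 was 0.17, with 3 below 0, against 51.1% of their genes.

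The measured regulators had a median close to that of all genes. *Srebf1*, *Srebf2* and *Scap*, the genes of SREBP and SCAP themselves, are absent from the data, which end at *Rad54l2*. Of 13 listed genes of the SREBP machinery and of sterol sensing 10 were measured, with a median of 0.038. They had 2 intervals below 0 and 3 above 0, against those same shares of 22.5% and 26.6%. *Paqr3*, whose product tethers SCAP at the Golgi apparatus, had 45 and 16 UMIs for control and NASH cells, at -1.16 (-2.11 to -0.34). *Fbxw7*, which encodes a ubiquitin ligase subunit that removes nuclear SREBP, was at -0.53 (-0.67 to -0.38). *Erlin1*, which encodes a membrane protein that restrains SREBP, was at 0.28 (0.075 to 0.49), and *Mbtps1*, which encodes the site-1 protease that cleaves SREBP, at 0.23 (0.10 to 0.36). *Insig2*, the paralog of *Insig1*, was at 74.9 and 75.6 CPM, with a log2 ratio of 0.013 (-0.13 to 0.16), named after its value was seen.

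Genes linked to the oxysterol receptor LXR lay mostly above 0 when all kept cells were pooled. The list mixes LXR targets, the genes of the receptor itself and oxysterol enzymes, so it is not a readout of sterol excess. Of its 12 genes 11 were measured, with a median of 0.32. Of these 10 were above 0, while 47.8% of all measured genes were below 0, and 8 had an interval above 0, against 26.6%. The median was not above 0 in each class. In T cell-like cells 4 of 7 were below 0, against 51.5% of their genes, with a median of -0.19. In B cell-like cells 4 of 5 were below 0, also against 51.5%, with a median of -0.19 and no interval below 0. The median was 0.13 in LSEC-like cells, with 6 of 9 intervals above and 2 below 0, against 14.1% and 14.6% of their genes. It was 0.16 in Kupffer cell-like and 0.55 in monocyte or macrophage-like cells. *Abca1*, the cholesterol efflux transporter gene, was at 172 and 262 CPM, with a log2 ratio of 0.61 (0.52 to 0.70). *Abcg1*, a further efflux transporter gene, was at 0.50 (0.42 to 0.58). *Abca1* was also higher in the NASH cells of 3 classes, at 0.81 (0.60 to 1.02) in LSEC-like, 0.40 (0.28 to 0.53) in Kupffer cell-like and 0.84 (0.44 to 1.28) in monocyte or macrophage-like cells. *Ch25h*, which encodes cholesterol 25-hydroxylase, had 8 and 54 UMIs, at 2.98 (1.98 to 4.34). *Cyp7b1*, which encodes an oxysterol hydroxylase, had 38 and 19 UMIs, at -0.68 (-1.58 to 0.13).

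Of 20 listed genes of sterol uptake, trafficking and esterification 15 were measured, with 7 intervals above 0 and 2 below 0, against 26.6% and 22.5% of all genes, and a median of 0.19. The median was -0.026 in LSEC-like cells, with 6 of 12 genes below 0, against 51.1% of their genes. It was 0.061 in Kupffer cell-like and 0.27 in monocyte or macrophage-like cells. *Lipa*, which encodes the lysosomal acid lipase that frees cholesterol from its esters, was at 683 and 1012 CPM, with a log2 ratio of 0.57 (0.52 to 0.61). It lay on either side of 0 among classes, at 1.35 (1.18 to 1.53) in monocyte or macrophage-like cells, 0.30 (0.25 to 0.36) in Kupffer cell-like cells and -0.21 (-0.34 to -0.086) in LSEC-like cells. *Npc2*, which encodes a lysosomal cholesterol carrier, was at 0.36 (0.32 to 0.41) over all kept cells.

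The branches that share precursors with the pathway were closer to the median of all genes. Of 11 listed genes of the isoprenoid branch 10 were measured, with 4 intervals above 0 and none below 0, against 26.6% and 22.5% of all genes, and a median of 0.17. *Icmt*, the methyltransferase gene of prenylated proteins, was at 0.44 (0.23 to 0.65), *Ggps1*, which encodes geranylgeranyl diphosphate synthase and is also in the enzyme list above, at 0.29 (0.17 to 0.42), and the coenzyme Q side-chain genes *Pdss1* and *Pdss2* at -0.31 (-0.79 to 0.16) and 0.34 (-0.14 to 0.81). Of 13 genes of fatty acid synthesis linked to SREBP1 11 were measured, with 3 intervals on either side of 0, again beside 26.6% above and 22.5% below, and a median of -0.042. The elongase gene *Elovl6* was at -0.86 (-1.27 to -0.48) and *Acss2*, which encodes acetyl-CoA synthetase, at -0.46 (-0.79 to -0.14). The elongase gene *Elovl5* was at 0.46 (0.37 to 0.55) and the fatty acid binding protein gene *Fabp5* at 0.97 (0.88 to 1.06), with 31 and 896 UMIs in monocyte or macrophage-like cells.

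**Figure D4:**
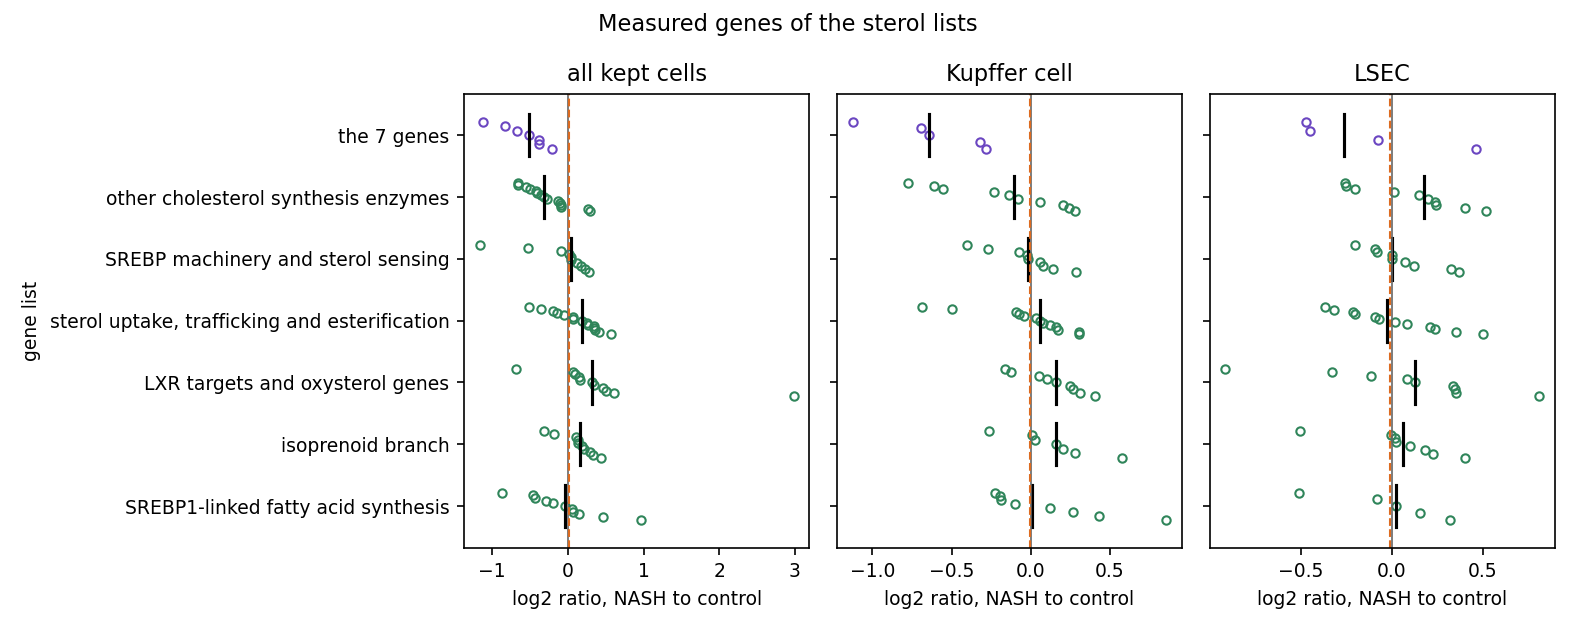
Log2 ratio of NASH to control of each measured gene of the 7 (violet) and of the 6 other sterol lists (green) in all kept cells, Kupffer cell-like and LSEC-like cells, with the median of each list as a black bar and the median of all measured genes as a dashed line. In all kept cells the 7 genes and the other synthesis enzymes have medians of -0.51 and -0.31, and the LXR and oxysterol genes one of 0.32.

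The 7 genes followed a like pattern over classes. Over 22 pairs of class and library with at least 50 cells, the log2 CPM of each gene was set against that of the sum of the other 6, as a description across points that share libraries and depth. The Pearson correlation was highest for *Idi1* (0.91) and *Hmgcs1* (0.91), followed by *Cyp51* (0.89), *Fdps* (0.85) and *Fdft1* (0.84). It was lower for *Insig1* (0.78) and *Lss* (0.72). At least 1000 UMIs were found for 3845 genes, a number that includes genes of the lists. Among those outside the lists, the pattern most like the sum was that of *Chd9*, a chromatin remodeller gene (0.76). It was followed by *Mvb12a* (0.68), *Cdc123* (0.66), *Etfa* (0.66) and *Idh2* (0.66), all below the correlation of each of the 7 genes with the others except that *Chd9* lay above *Lss*. The minimum of 1000 UMIs was not set for the 7 genes, of which *Fdps* had 56 control and 39 NASH UMIs. The correlations thus do not compare genes of like abundance.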

How the data were processed

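Per the paper's methods and the extraction protocol in the labels, the authors captured pooled NPCs with BD Rhapsody cartridges. Reads were counted with the BD whole transcriptome pipeline on GRCm38. The description in the labels names another platform, and BD Rhapsody was taken as the platform here. The authors deposited UMI counts per gene and cell with no normalization, and the sources used here give no annotation version. The genes run alphabetically to *Rad54l2*, so that totals cover part of each library and the study's 5% limit on mitochondrial transcripts was not usable. Listed genes later in the alphabet are absent and count as not measured. The NASH table has no header, and the control header was used for it. Around each of the 7 genes the totals of 21 columns correlated at 0.944 or more across libraries in this order. Values of some listed genes are not reported here.

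Cells were clustered in Seurat 5.3.0 (R 4.3.3) as in the study, by log normalization to 10000 UMIs, 2000 variable genes, regression on UMIs, 50 principal components and a resolution of 0.6. The 20 clusters were named by listed markers, at least 3 of which had to be among the 50 leading genes. Doublets were kept. Scrublet (scanpy 1.11.5) marked 52 control cells (1.24%) and 3 NASH cells (0.081%), too few in the latter to be informative.

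Counts were summed per class and library in Python 3.11.15 (numpy 2.4.6, scipy 1.17.1, pandas 2.3.3). CPM carry exact Poisson intervals, shares of cells exact binomial (Clopper-Pearson) intervals, and log2 ratios, with 0.5 UMI added to each sum, the interval of an exact binomial share. PCR duplicates were removed by UMIs, and intervals cover counting error only. Ratios were taken for genes with a total of 50 UMIs or more and classes with at least 50 cells in each, and a gene differing by 1.5 times or more was counted by size alone. The ratio script was tested on simulated data. The 7 genes and the lists were chosen with earlier results of these data known. Of each other list, up to 4 genes with the largest ratio in either direction over all kept cells were named, less those not reported here, as were the 5 genes outside the lists with the pattern most like the sum, and leading markers of the classes.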

Additional observations from a re-analysis of the deposited data

How the results depend on the processing

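With 1 library per diet, leaving out a replicate was not possible, and the differences between diets have no measure of the spread between mice. No paired analysis was possible because each diet has 1 library. The summed ratios of all kept cells, LSEC-like and Kupffer cell-like cells kept their direction under centring on the median of all genes, other totals, equal weight for each cell, thinning, and removal of hepatocyte-rich cells or Scrublet doublets, and those of both classes also under both other clusterings. Thinning each cell to 1000 UMIs moved the Kupffer cell-like sum to -0.68, and a sum without *Insig1*, chosen after seeing the data, moved it to -0.64 and that of LSEC-like cells to 0.086. With a minimum of 200 UMIs the Kupffer cell-like count of members at 1.5 times went from 3 to 0, since the 3 genes have fewer UMIs. Of 42 ratios of sums and single genes over all classes, thinning changed the sign of 7, among them *Idi1* in Kupffer cell-like cells at 0.59, and equal weight for each cell changed 3. In dendritic cell-like cells thinning moved the sum to -0.50. *Fdps* and *Lss* had under 50 UMIs in each class, as did every member in NK cell or ILC1-like cells and every member but *Insig1* in VEC-like, B cell-like and neutrophil-like cells, which is a limit set for the ratios and not a limit of detection. The calls of single genes that changed are given with the comparisons.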
